A study of Mus musculus with 10 samples.

Results

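*Lin28a*, *Lin28b*, *Igf2bp1*, *Igf2bp2*, *Igf2bp3*, *Hmga2* and *Trim71* are 7 genes of the vertebrate heterochronic pathway, the set of regulators that times the passage from early to late developmental programmes. They were taken by name from a count table of 53465 genes, and all 7 had a row. A filter on low counts kept 16426 genes for testing, among them 6 of the 7, and *Lin28a* did not pass it. The question asked of them was whether they mark a difference in developmental stage between the 2 genotypes.

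RNA was sequenced in bulk from micro-dissected pinna prominences, the rudiments of the external ear, of C57BL6 mouse embryos at E14.5, in mid-gestation. The study asked how duplication of mEC1, an enhancer of the homeobox gene *Hmx1*, alters ear development. The comparison was between 5 wild-type (WT) libraries, with 2 copies of mEC1, and 5 libraries of homozygous knock-in embryos (KI in the labels, *mEC1*dup/dup here), in which CRISPR/Cas9 placed an extra copy on each allele to give 4 copies. The methods describe independent biological replicates. For the mouse studies in general, the reporting summary describes replicates as siblings from separate litters. The sources used here do not say which libraries share a litter.

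LIN28A and LIN28B are RNA-binding proteins that hold back the maturation of the let-7 microRNAs. Mature let-7 in turn represses the mRNAs of *Lin28a*, *Lin28b*, *Trim71*, *Hmga2* and the *Igf2bp* genes through sites in their 3′ UTRs, so that these mRNAs are abundant in early embryos and decline in most tissues as let-7 accumulates. The mature let-7 RNAs were not measured in these mRNA libraries.

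The let-7 sequences are shown because the seed, bases 2 to 8 from the 5′ end, defines the sites that the 7 genes have in common. RefSeq (GRCm38.p6) listed 11 mature let-7 family members of the mouse, of which 10 had the seed GAGGUAG and let-7j had GAGGUAU. The seed is in capitals in the 4 examples below.
let-7a-5p: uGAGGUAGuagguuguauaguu
let-7g-5p: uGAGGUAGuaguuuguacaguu
miR-98-5p: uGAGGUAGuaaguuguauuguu
let-7j: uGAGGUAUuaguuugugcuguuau

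The longest annotated 3′ UTR of each gene (GENCODE M39, GRCm39) was searched, on the mRNA strand, for the 7-base seed match CTACCTC and for the 8-base form CTACCTCA, in which an A follows. All 7 genes held at least 1 8-base match, compared with 4.01% of the 20963 genes that had an annotated 3′ UTR. The 7 genes are known targets of let-7, so their matches follow from the choice of genes. The shares of all genes, here and below, give scale only. Long UTRs hold more matches, and among the 8953 genes whose 3′ UTR was at least as long as the shortest of the 7 (1784 nt, *Igf2bp2*), 6.85% held one. The 8-base match nearest the stop codon of each gene is given below with the match in capitals, 5′ to 3′ on the minus strand, from which all 7 genes are transcribed.
*Lin28a*, chr4:133732493-133732521: cacagcctgttgaaCTACCTCAtttttgc
*Lin28b*, chr10:45257111-45257139: cccgggcgggaagtCTACCTCAtgcaagc
*Trim71*, chr9:114341533-114341561: acattgcctaagtcCTACCTCAgcttaaa
*Hmga2*, chr10:120200122-120200150: ccgacattcaatttCTACCTCAgcatcag
*Igf2bp1*, chr11:95852597-95852625: ctgtgcgaagtaaaCTACCTCAaggtgtg
*Igf2bp2*, chr16:21878216-21878244: cacacaaataaaagCTACCTCAggtgttt
*Igf2bp3*, chr6:49063714-49063742: gcatttttactcaaCTACCTCAggtattc

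The number of matches differed among the 7 genes. *Lin28b*, *Trim71*, *Hmga2* and *Igf2bp1* each held 4 7-base matches, and they were 4 of only 15 genes (0.0716% of the 20963) with 4 or more. All 4 matches of *Trim71* were of the 8-base form, as were 3 of the 4 of *Igf2bp1* and 1 of the 4 of *Hmga2* and of *Lin28b*. Only 3 genes of the 20963 held 4 or more 8-base matches, *Mcf2l*, *Trim6* and *Trim71*. *Lin28a* held 2 8-base matches, and *Igf2bp2* and *Igf2bp3* held 1 each. A match of letters is not a measured binding site.

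**Figure D1:**
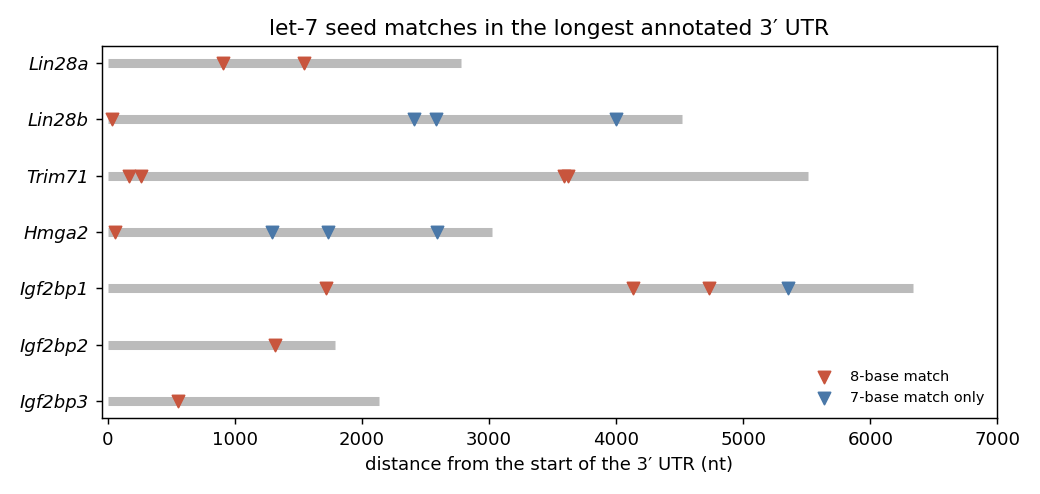
Position of each let-7 seed match along the longest annotated 3′ UTR of the 7 genes, as the distance in nucleotides from the first base of the UTR; grey bars span the UTRs, red triangles mark 8-base matches and blue triangles 7-base matches only. The first match of *Lin28b* lies 36 nt and that of *Hmga2* 58 nt into the UTR, and the single match of *Igf2bp2* lies at 1313 of 1784 nt.

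The library totals were similar, from 17461544 to 18462073 counts. Levels are given in CPM, the count of a gene relative to the total count of its library, after scaling by edgeR's trimmed mean of M values (TMM). A gene was called changed if its p, adjusted by the method of Benjamini and Hochberg, did not exceed 0.05 and its log2 CPM averaged 1 or more. By edgeR's quasi-likelihood test 2.64% of the tested genes were called, 0.834% higher and 1.81% lower in *mEC1*dup/dup. *Hmx1*, the gene that the enhancer controls, was at 21.7 to 29.1 CPM in the WT libraries and at 52.8 to 77.5 CPM in the *mEC1*dup/dup libraries, which checks the labels. *Prrx1* and *Pdgfra*, which mark the mesenchyme of the prominence, had mean levels of 628 and 521 CPM in WT. Sex was not balanced: *mEC1*dup/dup replicates 1, 2 and 3 held 12812 to 19040 counts of *Xist*, the RNA of the inactive X chromosome, while *mEC1*dup/dup replicate 4 held 2096, *mEC1*dup/dup replicate 5 held 0 and the WT libraries held at most 5. Y-linked genes held 258 to 802 counts in *mEC1*dup/dup replicates 1 to 3, and 3430 in replicate 4 and 3725 in replicate 5, where the WT libraries held 3341 to 3985. *mEC1*dup/dup replicates 1 to 4 thus held both *Xist* and Y-linked counts. The study's reporting summary describes 5 independent embryos per genotype, and whether a library holds RNA of embryos of both sexes was not tested. The *Xist* covariate used below measures *Xist* RNA and not the sex of an embryo.

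None of the 6 tested genes was called changed between the genotypes by edgeR's quasi-likelihood test, and at an unadjusted p under 0.05 there were 3, *Hmga2*, *Igf2bp1* and *Lin28b*, all higher in *mEC1*dup/dup. Across all tested genes 7.1% were higher and 9.08% lower at that unadjusted p. At an adjusted p of at most 0.10 only *Hmga2* was called higher, as were 1.97% of all tested genes. The Wald test of DESeq2 and edgeR's likelihood ratio test each called 1 of the 6, *Hmga2*, and limma-voom called 0. Of all 16426 tested genes these tests called 321, 219 and 119 higher, in that order, against 137 by the quasi-likelihood test. The 6 log2 fold changes were all above 0, with a median of 0.12 and a range of 0.02 to 0.39, where 48.8% of all tested genes were above 0 and their median was -0.0041. The mean of a gene in bulk tissue cannot tell fewer cells of a type from less RNA in each cell.

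**Figure D2:**
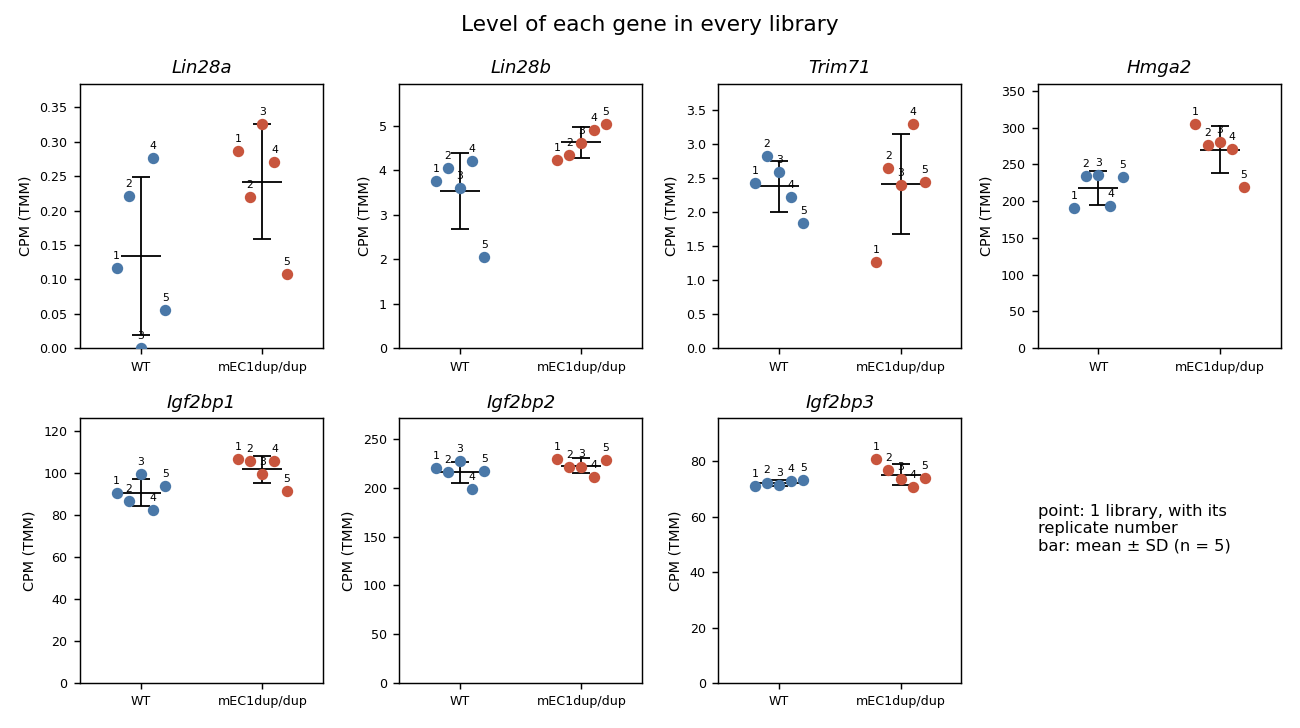
TMM-scaled CPM of each of the 7 genes in every library (points, numbered by replicate), with the mean and SD of 5 libraries per genotype as bars; each panel has its own axis from 0. The genotypes do not overlap for *Lin28b* alone, where they do overlap when scaled to total counts, and *mEC1*dup/dup replicate 5 is the lowest of its group for *Hmga2* and *Igf2bp1*.

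*Lin28a* (ENSMUSG00000050966, chr4:133730641-133746173) encodes the LIN28 protein best known from pluripotent stem cells. It was barely detected. The WT libraries, in replicate order, held 2, 4, 0, 5 and 1 counts, and the *mEC1*dup/dup libraries held 5, 4, 6, 5 and 2, which makes 34 counts in all. The 0 counts of WT replicate 3 allow a level of up to 0.166 CPM (3 counts of that library's total, counting error only). The mean levels were 0.134 ± 0.115 CPM in WT and 0.242 ± 0.0837 CPM in *mEC1*dup/dup (SD, n = 5), and the ranges overlapped. Fitted without the filter, its log2 fold change of 0.82 had a 95% interval from -0.58 to 2.23 (adjusted p = 0.597, edgeR's quasi-likelihood test), so a difference was not detectable at this depth. Of 5 listed genes of pluripotent and germ cells, 4 also failed the filter: *Pou5f1*, a defining gene of pluripotent cells, reached at most 1 count in a library, *Dppa3* 2, *Dazl* 4 and *Nanog* 16. The germ cell gene *Ddx4* passed it, at 1.99 ± 0.471 CPM in WT and 1.2 ± 0.801 CPM in *mEC1*dup/dup (SD, n = 5; log2 fold change -0.72, adjusted p = 0.393, edgeR's quasi-likelihood test), and was not called.

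*Lin28b* (ENSMUSG00000063804, chr10:45252646-45362557) encodes the other LIN28 protein, which acts mainly in later embryonic tissues. The WT libraries were at 3.76, 4.04, 3.59, 4.21 and 2.05 CPM, and the *mEC1*dup/dup libraries were at 4.23, 4.35, 4.62, 4.91 and 5.04 CPM. The groups did not overlap, though the gap between 4.21 and 4.23 CPM was far smaller than the spread within either group, and 2.33% of all tested genes had *mEC1*dup/dup libraries all above WT (2.75% all below). Scaled to total counts alone the groups overlapped, with WT replicate 4 at 4.27 and *mEC1*dup/dup replicate 1 at 4.24 CPM. The mean was 3.53 ± 0.862 CPM in WT and 4.63 ± 0.346 CPM in *mEC1*dup/dup (SD, n = 5), a 1.31-fold difference. On the log2 scale it was 0.39 ± 0.18 (SE), with a 95% interval from 0.01 to 0.77 and an adjusted p of 0.296 (edgeR's quasi-likelihood test). WT replicate 5, with 37 counts (Poisson 95% interval 26.1 to 51), lay well below the other 4 WT libraries, which had 64 to 76. Without that library the log2 fold change was 0.25, and over all alternatives tried the adjusted p ran from 0.205 to 0.896.

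Of the *Lin28* signal per exon length, *Lin28b* made up 85.5% to 100% in the 10 libraries. The sum of the 2 genes was 0.227 to 0.506 CPM per kb of exon in WT and 0.507 to 0.577 CPM per kb in *mEC1*dup/dup, and with TMM scaling the ranges again met without overlapping.

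*Trim71* (ENSMUSG00000079259, chr9:114336201-114393437) encodes the mouse counterpart of LIN-41, an RNA-binding ubiquitin ligase that is a classical target of let-7. The WT libraries were at 2.43, 2.82, 2.58, 2.22 and 1.83 CPM, and the *mEC1*dup/dup libraries were at 1.26, 2.65, 2.39, 3.29 and 2.44 CPM. Both the lowest and the highest of the 10 libraries were *mEC1*dup/dup, and the means were 2.37 ± 0.378 and 2.4 ± 0.735 CPM (SD, n = 5). Its log2 fold change was 0.02 ± 0.23 (SE; 95% interval -0.47 to 0.51; adjusted p = 0.978, edgeR's quasi-likelihood test). A library held only 22 to 61 counts of this gene. The sign of the estimate was not stable: it was -0.119 without *mEC1*dup/dup replicate 4 and 0.18 without *mEC1*dup/dup replicate 1.

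*Hmga2* (ENSMUSG00000056758, chr10:120197173-120313095) encodes an architectural chromatin protein that promotes growth of embryonic mesenchyme and is silenced in most adult tissues. The WT libraries were at 191, 234, 236, 193 and 233 CPM, and the *mEC1*dup/dup libraries were at 305, 276, 280, 271 and 219 CPM. In 4 *mEC1*dup/dup libraries the level lay above every WT library, and *mEC1*dup/dup replicate 5 lay among the WT values. The mean level was 217 ± 23.1 CPM in WT and 270 ± 31.4 CPM in *mEC1*dup/dup (SD, n = 5), 1.24-fold higher. On the log2 scale the difference was 0.31 ± 0.09 (SE), with a 95% interval from 0.13 to 0.50 and an adjusted p of 0.0757 (edgeR's quasi-likelihood test), just outside the threshold. The Wald test of DESeq2 gave an adjusted p of 0.00939 for the same counts, edgeR's likelihood ratio test gave 0.0197, and the quasi-likelihood test without *mEC1*dup/dup replicate 5 gave 0.022. Over all alternatives the adjusted p ran from 0.00939 to 0.948. Exons of *1700006J14Rik* and *Gm51785* on the opposite strand cover 5.16% of the exon length of *Hmga2*, and *1700006J14Rik* held 4 to 20 counts per library.

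The 3 libraries with most *Xist* were also the 3 highest for *Hmga2*. When the log2 CPM of *Xist* entered the fit as a covariate, *Hmga2* had a log2 fold change of 0.05 ± 0.10 (SE; adjusted p = 0.92, edgeR's quasi-likelihood test). Without those 3 libraries, an alternative chosen after seeing the data, it was 0.17 ± 0.11 (SE; adjusted p = 0.629, edgeR's quasi-likelihood test), from 2 *mEC1*dup/dup libraries against 5 WT. *Xist* was high in no WT library, so that sex and genotype cannot be fully told apart for any gene. Of the *mEC1*dup/dup libraries only replicate 5, with 0 counts, was like WT in *Xist*. The genotype estimate of the covariate fit thus rests largely on that library, where *Hmga2* was at 219 CPM. For *Lin28b* the same fits gave 0.50 ± 0.27 (SE; adjusted p = 0.622) with *Xist* as a covariate and 0.49 ± 0.26 (SE; adjusted p = 0.535) without the 3 libraries, by edgeR's quasi-likelihood test.

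*Igf2bp1* (ENSMUSG00000013415, chr11:95847989-95896911) encodes an oncofetal RNA-binding protein that stabilizes and localizes target mRNAs such as *Actb* and *Myc*. The WT libraries were at 90.8, 87, 99.6, 82.6 and 93.9 CPM, and the *mEC1*dup/dup libraries were at 107, 106, 99.6, 106 and 91.8 CPM. Of the *mEC1*dup/dup libraries 3 lay above all WT libraries, 1 was level with the highest WT library, and replicate 5 was among the WT values. The means were 90.8 ± 6.48 and 102 ± 6.47 CPM (SD, n = 5), a 1.12-fold difference. Its log2 fold change was 0.17 ± 0.06 (SE; 95% interval 0.05 to 0.29; unadjusted p = 0.00993, adjusted p = 0.141, edgeR's quasi-likelihood test). With *Xist* as a covariate it was 0.05, and without the 3 *Xist*-rich libraries 0.12.

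*Igf2bp2* (ENSMUSG00000033581, chr16:21877759-21982499) encodes the family member whose expression persists longest after birth. The WT libraries were at 220, 216, 228, 199 and 217 CPM, and the *mEC1*dup/dup libraries were at 230, 221, 222, 211 and 229 CPM. The groups overlapped between 211 and 228 CPM, with 2 *mEC1*dup/dup libraries above all WT libraries and WT replicate 4 below all *mEC1*dup/dup libraries. The means were 216 ± 10.6 and 223 ± 7.79 CPM (SD, n = 5). Its log2 fold change was 0.04 ± 0.04 (SE; 95% interval -0.04 to 0.13; adjusted p = 0.655, edgeR's quasi-likelihood test).

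*Igf2bp3* (ENSMUSG00000029814, chr6:49062144-49192447) encodes the third paralog, which like *Igf2bp1* is largely restricted to the embryo. The WT libraries were at 71.2, 72.4, 71.4, 73.1 and 73.3 CPM, a coefficient of variation of only 1.31%. Among the *mEC1*dup/dup libraries, at 81, 76.8, 73.7, 70.9 and 73.9 CPM, 4 lay above the highest WT library and 1 below the lowest. The means were 72.3 ± 0.949 and 75.3 ± 3.85 CPM (SD, n = 5), and the log2 fold change was 0.06 ± 0.04 (SE; 95% interval -0.03 to 0.15; adjusted p = 0.53, edgeR's quasi-likelihood test). Exons of *Malsu1* and *Gm67966* on the opposite strand cover 20.7% of the exon length of *Igf2bp3*. The library kit does not mark strand, so reads there cannot be assigned to one gene. *Malsu1* itself held 216 to 311 counts per library.

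**Figure D3:**
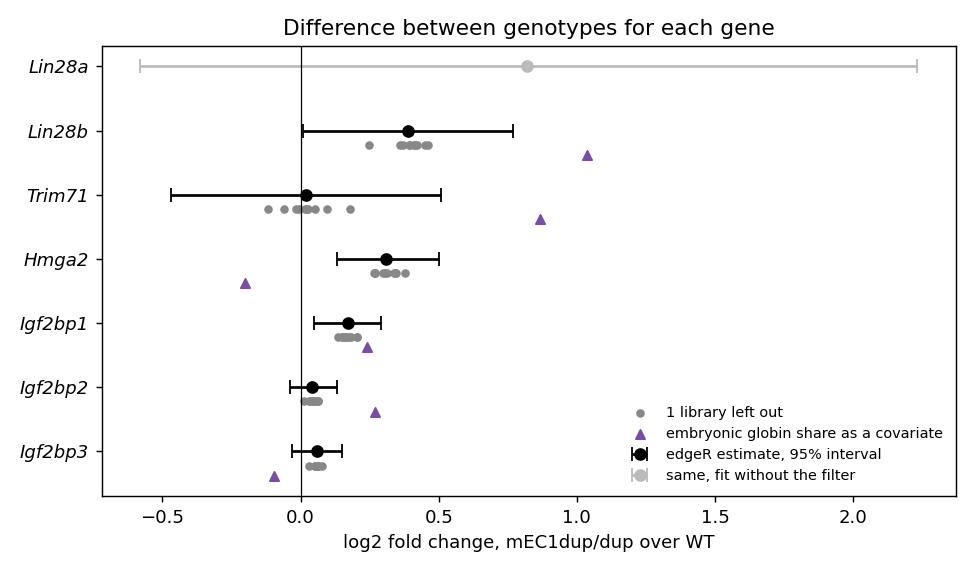
Log2 fold change of each gene, *mEC1*dup/dup over WT (x axis), with its 95% interval from edgeR (black; grey for *Lin28a*, fitted without the filter), the 10 estimates with 1 library left out (grey points) and the estimate when the embryonic globin share was a covariate (triangles). The intervals of *Hmga2*, *Igf2bp1* and *Lin28b* lie above 0. With the covariate, which separates the genotypes completely, *Hmga2* was -0.202 (SE 0.374) and *Igf2bp3* -0.096 (SE 0.176), so neither sign is settled.

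Levels of different genes were compared per kb of exon. In WT the order of the mean levels was *Igf2bp2* (26.9 ± 1.31 CPM per kb, SD, n = 5), *Hmga2* (25.2 ± 2.68), *Igf2bp1* (8.83 ± 0.631), *Igf2bp3* (8.28 ± 0.109), *Lin28b* (0.366 ± 0.0895), *Trim71* (0.254 ± 0.0405) and *Lin28a* (0.0333 ± 0.0285). The genes thus fell into 3 pairs, with *Lin28a* below them. *Igf2bp2* and *Hmga2* stood at the 91.3 and 90.5 percentiles of the tested genes, *Igf2bp1* and *Igf2bp3* at 71.3 and 69.9, and *Lin28b* and *Trim71* at 9.29 and 5.94. Within each pair the ranges over the WT libraries overlapped, whereas between pairs, and between *Trim71* and *Lin28a*, they did not.

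In *mEC1*dup/dup the order of the upper pair was turned, with *Hmga2* at 31.3 ± 3.64 and *Igf2bp2* at 27.7 ± 0.969 CPM per kb (SD, n = 5), though their ranges still overlapped. The ratio of *Hmga2* to *Igf2bp2* per kb was 0.813, 1.01, 0.961, 0.903 and 1 in the WT libraries and 1.23, 1.16, 1.17, 1.2 and 0.888 in the *mEC1*dup/dup libraries. Replicates 1 to 4 of *mEC1*dup/dup were above all WT libraries, and replicate 5 was below 4 of the 5. The 5 lower genes kept their order, and *Lin28b* (0.439 to 0.523 CPM per kb) did not overlap *Trim71* (0.135 to 0.353 CPM per kb). The overlap of these genes in WT rested on WT replicate 5, where *Lin28b* was at 0.213 CPM per kb: in the other 4 WT libraries it was at 0.373 to 0.437, above every WT value of *Trim71* (0.196 to 0.303).

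The makeup of the *Igf2bp* family varied little. *Igf2bp2* was 60.1% to 61.7% of the summed level per kb in WT and 58.7% to 62.1% in *mEC1*dup/dup, *Igf2bp1* was 19.4% to 21% and 19.4% to 23.1%, and *Igf2bp3* was 17.7% to 20.3% and 18.2% to 19.2%. The sum of the 3 genes was 41.2 to 46.2 CPM per kb in WT and 44.6 to 48.3 CPM per kb in *mEC1*dup/dup, and these ranges overlapped.

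**Figure D4:**
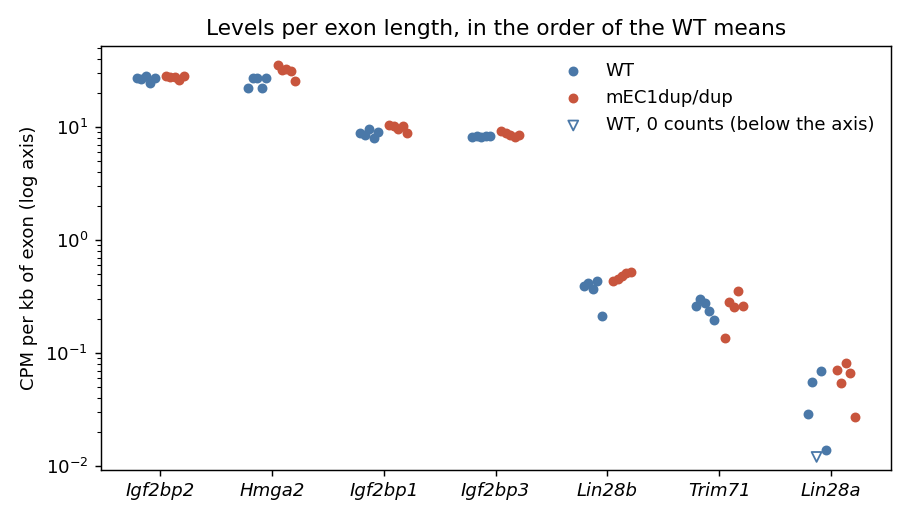
Level of each gene in CPM per kb of exon on a log axis, with the genes in the order of their WT means and 1 point per library; the open triangle is WT replicate 3, with 0 counts of *Lin28a*, which cannot be placed on the axis. *Igf2bp2* and *Hmga2* lie near 26.9 and 25.2 CPM per kb in WT, the other *Igf2bp* genes near 8.83 and 8.28, and *Lin28b* reaches at most 0.523 in any library.

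Library by library, the 6 tested genes did not move as 1 unit. In *mEC1*dup/dup replicates 2 and 3 all 6 were above their own mean over the 10 libraries, in replicate 1 there were 5 and in replicates 4 and 5 there were 4. In the WT libraries, in replicate order, 2, 2, 3, 1 and 0 of the 6 were above their mean. Once the genotype means were subtracted, the deviations of *Hmga2* and *Igf2bp1* correlated at r = 0.73 over the 10 libraries, and those of *Igf2bp3* and *Trim71* at r = -0.85. *Lin28b* correlated below 0 with every other gene but *Trim71* (r = 0.47). These are descriptions over 10 libraries that share their scaling, with no p.

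The genes whose deviations from the genotype means were most like those of each gene were sought among 14036 tested genes, over the same 10 libraries. For *Hmga2* they were *Gm45250* (r = 0.95), *Ythdc2* (r = 0.949) and *Pals1* (r = 0.939). *Igf2bp2* was followed most closely by *Uhrf1* (r = 0.96), *Adamts1* (r = 0.954) and *Csad* (r = 0.953), and *Igf2bp1* by *Srgap1* (r = 0.929), *Morc2a* (r = 0.927) and *Bbx* (r = 0.916). For *Igf2bp3* they were *Brd9* (r = 0.926), *Atp13a3* (r = 0.909) and *Dock11* (r = 0.907). Nearest to *Lin28b* were *Ccdc82* (r = 0.922), *Msh3* (r = 0.911) and *Wdr45* (r = 0.907), and to *Trim71* *Cpxm2* (r = 0.982), *Slc38a3* (r = 0.957) and *Slpi* (r = 0.944). Each is the top of 14036 correlations over only 10 libraries, and none was tested.

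The rest of the pathway was read from fixed lists, here and in the paragraphs below. For comparison, 2.64% of all tested genes were called and 48.8% had a log2 fold change above 0. In 2.33% the *mEC1*dup/dup libraries all lay above WT. At these shares lists this short would hold few calls or none. Of 19 genes that process, degrade or use let-7 (the Microprocessor, Dicer and Argonaute complexes and the uridylation pathway), 0 were called in either direction, 14 had a log2 fold change above 0 and the median was 0.07. The most abundant were the RNA helicases *Ddx17* (log2 fold change 0.06) and *Ddx5* (0.07) and the RNA-binding protein gene *Khsrp* (0.08). *Drosha*, the nuclease that makes the first cut in let-7 precursors, and *Dis3l2*, the exonuclease that degrades uridylated pre-let-7, were named after their values were seen, because their groups did not overlap. *Drosha* was at 171 ± 5.18 CPM in WT and 188 ± 6.78 CPM in *mEC1*dup/dup (log2 fold change 0.14, adjusted p = 0.0615, edgeR's quasi-likelihood test). *Dis3l2* was at 30.4 ± 1.86 and 33.9 ± 1.36 CPM (log2 fold change 0.16, adjusted p = 0.154, edgeR's quasi-likelihood test; SD, n = 5 for both genes).

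Genes that host let-7 loci were measured as proxies of the loci only, since the microRNA itself was not counted. Of 5 listed, 4 were in the table and 0 were called. *Huwe1* had a log2 fold change of -0.01, *Mir100hg* 0.18 and *Spaca6* 0.07, each with an adjusted p of at least 0.425 (edgeR's quasi-likelihood test).

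Other let-7 targets were read in the same way. Of 20 listed targets outside the group 0 were called, and 13 were above 0, where 48.8% of all tested genes were. The median log2 fold change was 0.03, against -0.0041 for all tested genes. This difference was not tested. *Ccnd2* and *Ccnd1*, which encode D-type cyclins, had log2 fold changes of 0.02 and 0.10, and *Hmga1*, the paralog of *Hmga2*, 0.03. *Cdc25a*, a phosphatase gene of the cell cycle named after its values were seen, did not overlap between groups, at 86 ± 3.36 CPM in WT and 94.4 ± 0.944 CPM in *mEC1*dup/dup (SD, n = 5; adjusted p = 0.0606, edgeR's quasi-likelihood test).

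The same was asked, by their 8-base matches, of the tested genes that had an annotated 3′ UTR, with the group itself left out. The 13713 genes without a match had a median log2 fold change of -0.005, the 663 with 1 match 0.004, and the 42 with 2 or more 0.011. Of the 705 genes with at least 1 match, 6 (0.851%) were called higher and 11 (1.56%) lower, close to the shares of all tested genes. Genes with matches also had longer 3′ UTRs, with a median of 3053 nt against 1835 nt, and the part of UTR length in these medians was not tested. Of the genes richest in 8-base matches beside *Trim71*, *Mcf2l* had a log2 fold change of 0.01 and *Trim6* -0.02.

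Among 6 mRNAs known to be bound by IGF2BP proteins, 0 were called and the median log2 fold change was -0.08. *H19*, an imprinted fetal RNA, was at 4370 ± 176 CPM in WT and 4010 ± 124 CPM in *mEC1*dup/dup (log2 fold change -0.12, adjusted p = 0.0999), and *Actb* was at 2380 ± 63 and 2560 ± 40.6 CPM with no overlap (log2 fold change 0.10, adjusted p = 0.0955; edgeR's quasi-likelihood test, SD, n = 5). *Cd44*, which encodes the hyaluronan receptor and was named after its values were seen because its p was the smallest of the list, was at 110 ± 11.5 CPM in WT and 84.6 ± 12.6 CPM in *mEC1*dup/dup (SD, n = 5; log2 fold change -0.38, adjusted p = 0.0536, edgeR's quasi-likelihood test). *Igf2*, the fetal growth factor gene after which the family is named, differed by -0.11 on the log2 scale (adjusted p = 0.622, edgeR's quasi-likelihood test). Of 8 genes of the IGF axis 1 was called: *Igf2r*, the receptor that clears IGF2, was lower, at 295 ± 30.9 CPM in WT and 241 ± 14.2 CPM in *mEC1*dup/dup (SD, n = 5; log2 fold change -0.29, adjusted p = 0.0377, edgeR's quasi-likelihood test). This call was lost without the 3 *Xist*-rich libraries, where 0 of all tested genes were called lower. The level of *Igf2r* was 226 and 253 CPM in the *mEC1*dup/dup libraries left, replicates 4 and 5. It was 247, 253 and 225 CPM in replicates 1 to 3, and 249 to 323 CPM in WT. Of 12 cell cycle genes 0 were called, with a median of 0.03, where 2.64% of all tested genes were called.

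The embryonic share of globin counts, which falls during gestation as definitive red cells replace primitive ones, differed with genotype in the same libraries. The globin genes of the embryonic red cell, *Hba-x*, *Hbb-y* and *Hbb-bh1*, made up 18.4%, 21.6%, 20%, 23.3% and 23.1% of globin counts in WT and 34.6%, 35%, 35.6%, 33.6% and 32.5% in *mEC1*dup/dup. The groups were far apart, with means of 21.3% ± 2.07 and 34.3% ± 1.22 (SD, n = 5; two-sided exact permutation test, p = 0.00794, the smallest that 252 arrangements allow). The share was chosen because earlier results of these data had shown it to differ with genotype. This p is therefore a description and not an independent test. Of 3 embryonic globin genes 2 were called higher, *Hbb-y* (log2 fold change 0.81, adjusted p = 0.0407) and *Hba-x* (0.79, adjusted p = 0.0458). Of 4 later globin genes *Hba-a2* alone was called, lower (-0.49, adjusted p = 0.0416, edgeR's quasi-likelihood test throughout). Of all tested genes 0.834% were called higher and 1.81% lower. Without the 3 *Xist*-rich libraries 1 gene was called higher and 0 lower. Within a genotype the levels and the share gave no common order. WT replicate 4, with the highest WT share, had the highest *Lin28b* of the WT libraries but, at 193 CPM, nearly the lowest *Hmga2*, and *mEC1*dup/dup replicate 5, with the lowest share of its group, had its lowest *Hmga2* and its highest *Lin28b*. As the share separates the genotypes completely, it cannot be told apart from genotype in a fit: with it as a covariate the log2 fold change of *Hmga2* was -0.20 with an SE of 0.37, and that of *Lin28b* was 1.04 with an SE of 0.79.

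**Figure D5:**
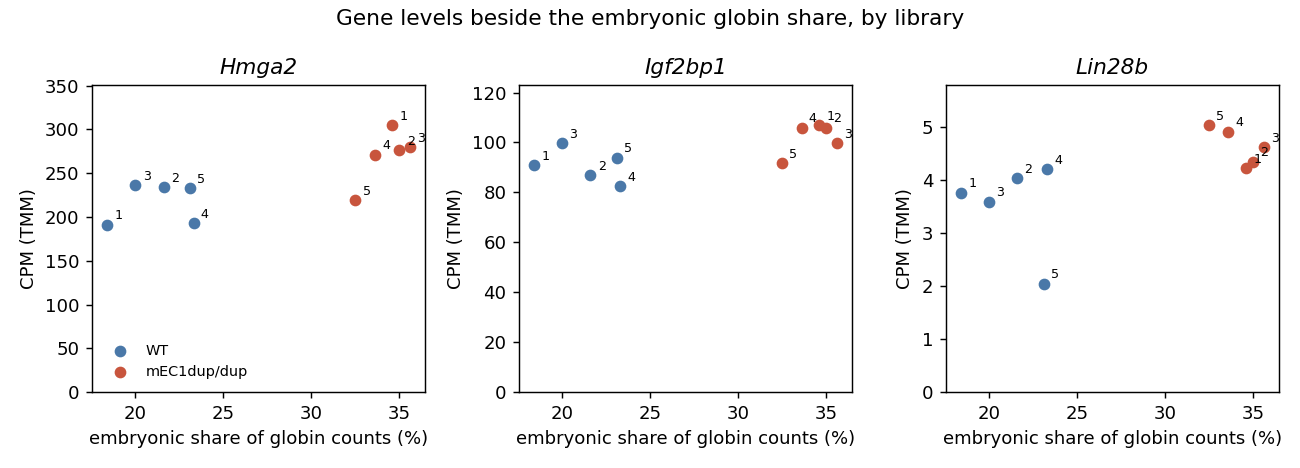
TMM-scaled CPM of *Hmga2*, *Igf2bp1* and *Lin28b* (y axes, from 0) against the embryonic share of globin counts in percent (x axis), 1 point per library, numbered by replicate. The shares of the genotypes are separated, 18.4% to 23.3% in WT and 32.5% to 35.6% in *mEC1*dup/dup, and *mEC1*dup/dup replicate 5 has the lowest share and the lowest *Hmga2* of its group.

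Markers of other cell types also differed between the genotypes. Of 6 genes of epidermal differentiation 5 were called lower (*Krt1*, *Krt10*, *Krt77*, *Dmkn* and *Krtdap*), where 1.81% of all tested genes were called lower. The median log2 fold change of the 6 was -1.92, and their summed level was 163 to 482 CPM in WT and 58 to 80.1 CPM in *mEC1*dup/dup. Of 6 epithelial markers 3 were lower (*Krt5*, *Krt14* and *Perp*; sums 764 to 1350 and 603 to 797 CPM), and of 7 muscle markers 2 were lower (*Ttn* and *Ckm*; sums 1200 to 1870 and 931 to 1410 CPM). Of 8 mesenchymal markers 1 was lower (*Lum*; sums 9290 to 15100 and 10200 to 11200 CPM), and of 5 cartilage markers 0 were called (sums 4550 to 7600 and 2050 to 6040 CPM). These calls too were lost without the 3 *Xist*-rich libraries, which leaves 2 *mEC1*dup/dup libraries. Of all tested genes 1 was called lower with *Xist* as a covariate. In the libraries left, replicates 4 and 5, the epidermal sums were 58 and 77.3 CPM and the epithelial sums 603 and 631 CPM. These values were below those of all WT libraries. *Lum*, at 319 and 308 CPM, was also below WT (367 to 417 CPM). The muscle sum was below WT in replicate 4 but within the WT range in replicate 5, at 1350 CPM. The part of *Xist* or sex in these levels was not tested. None of the endothelial, macrophage, Schwann cell, melanocyte or neuron markers was called. The summed level of the 4 neuron markers varied widely within the genotypes, at 125, 38.6, 29.8, 453 and 156 CPM in the WT libraries and 55.8, 68.9, 69.3, 197 and 160 CPM in the *mEC1*dup/dup libraries. The libraries with most of it, WT replicate 4 and *mEC1*dup/dup replicates 4 and 5, were also the highest of their genotype for *Lin28b*, whereas WT replicate 5, with the next most in WT, was the lowest. The part of these differences in the values of *Hmga2*, *Igf2bp1* and *Lin28b* was not tested.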

How the data were processed

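Bulk RNA of E14.5 pinna prominences was sequenced in 5 WT and 5 *mEC1*dup/dup libraries. Per the labels and the study's methods, the authors made libraries with a kit that does not mark strand, used fastp for trimming, STAR for alignment to GRCm39 and featureCounts for counting. Their deposited table gives raw counts per gene. The annotation release and the handling of reads with several matches are not given in the sources used here. The table has 53465 Ensembl identifiers, of which 49355 matched a symbol in GENCODE M39; the others held 0.111% of counts.

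Genes were filtered with filterByExpr, scaled by TMM and tested with edgeR (version 4.0.16; glmQLFit, glmQLFTest) in R (version 4.3.3). The model held genotype alone, and p was adjusted over 16426 genes (Benjamini-Hochberg). The study's thresholds were kept for a call, an adjusted p up to 0.05 with a mean log2 CPM of 1 or more. The biological coefficient of variation was 0.113. Total counts were 17461544 to 18462073 per library, which limits the precision of *Lin28a*, *Lin28b* and *Trim71*; reads carry no molecular identifiers, so counting intervals (95%, exact Poisson) and limits for 0 counts (3 counts) cover counting error only. CPM per kb used the union of annotated exons. Deviations were taken from log2 CPM with a prior count of 2. Replicates of a genotype differed by more than counting noise (chi-square per degree of freedom at least 2.56), so no library was a copy of another. The steps were tested on simulated counts.

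The genes and the lists were chosen with earlier results of these data known. Besides the 7 genes and *Hmx1*, the text names genes of a list that were called (at most 6 by p) and up to 3 others of highest level. It also names the 3 genes most like each of the 6 tested genes. Others are marked as chosen after their values were seen. *Xist*, Y-linked genes, *Mcf2l*, *Trim6* and the genes of pluripotent and germ cells are named as checks, and *Prrx1* and *Pdgfra* as tissue markers. Alternatives were other scalings, DESeq2 (version 1.42.0), limma-voom (version 3.58.1), the likelihood ratio test, other filters and thresholds, a replicate block, a covariate (*Xist* or the embryonic globin share), and each library left out. Figures used matplotlib (version 3.10.9).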

Additional observations from a re-analysis of the deposited data

Results flagged for a closer look

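*Lin28b* in WT replicate 5 was at 2.05 CPM, far from the other 4 WT libraries at 3.59 to 4.21 CPM: its gap to the nearest of them was 0.713 of the range of the group, above Dixon's 95% limit for 5 samples. It was the only such library in the 26 groups checked, where chance flags about 1 in 20 groups.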

How the results depend on the processing

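Over 22 alternatives each, the estimates of *Lin28b*, *Igf2bp1* and *Igf2bp2* kept their sign and none passed the threshold; with 1 library left out they ran from 0.248 to 0.46, 0.134 to 0.204 and 0.013 to 0.064 (log2). *Hmga2* passed it with the Wald test of DESeq2 (0.314), edgeR's likelihood ratio test (0.312), no filter (0.318) and without *mEC1*dup/dup replicate 5 (0.378). With 1 library left out *Hmga2* ran from 0.265 to 0.378. These alternatives, and an adjusted p of at most 0.10, gave 1 member called higher in place of 0 (0 to 1 with 1 library left out). When the embryonic globin share was a covariate *Hmga2* was -0.202 (SE 0.374) and *Igf2bp3* -0.096 (SE 0.176). That share separates the genotypes completely, so neither sign is settled. With 1 library left out *Igf2bp3* ran from 0.031 to 0.079. *Trim71* was -0.025 with limma-voom and -0.119 to 0.18 with 1 library left out. Apart from the covariates, which overlap with genotype, the cause was not tested.

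Of all tested genes 137 were called higher and 297 lower. These counts were 321 and 510 with DESeq2, 219 and 447 with the likelihood ratio test, 324 and 488 at an adjusted p of at most 0.10, 2 and 1 with *Xist* as a covariate, 0 and 0 with the globin share, and 1 and 0 without the 3 *Xist*-rich libraries (chosen after seeing the data). With 1 library left out they ran from 34 (without *mEC1*dup/dup replicate 3) to 179 and from 120 (the same) to 476 (without WT replicate 4).

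The shared replicate numbers did not establish pairs: same-numbered libraries correlated at -0.0558 to 0.345, and 2 of the 5 WT libraries correlated best with their own number. With a replicate block *Trim71* was -0.007, *Hmga2* 0.31 and *Lin28b* 0.413, none called, and 487 genes were called lower.

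Depth limited *Lin28a*, which has a fitted value only without the filter, and the precision of *Lin28b* and *Trim71*. The median of genes with let-7 matches was 0.002 with the 7-base form, and the embryonic globin share differed by 12.3 to 13.5 percentage points with 1 library left out.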
